A study of Mus musculus with 12 samples.

Results

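Mouse embryonic fibroblasts whose labels give a knockout of both Fadd and Mlkl were compared, across the genes of the autosomes, with fibroblasts whose labels give a knockout of both Casp8 and Mlkl. The 2 groups were chosen by their sample titles and hold 3 RNA sequencing libraries each, 6 of the 12 libraries of the series. The test covered 15846 autosomal genes of 16396 genes tested. All cells were immortalised with SV40 large T antigen, carried an empty vector in place of the missing gene, received no treatment and were harvested 24 h after plating. Both groups carry the Mlkl knockout, so they share it and differ by label in which of Fadd or Casp8 is missing. The other 6 libraries hold the same 2 lines with Fadd or with Casp8 put back. They are used to ask which differences between the lines were also present there. All 12 libraries were fitted together, so the filter, scaling and spread behind the knockout p-values draw on these 6 too. Each genotype is 1 line as far as the labels say, so the genotype cannot be told apart from anything else in which 2 separately derived lines differ. The 3 libraries of a group came from separate cultures per the labels, and the p-values measure the spread between cultures of 1 line.

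FADD is the adaptor that joins death receptors to caspase-8, and caspase-8 is the protease that FADD activates. Together they start apoptosis and hold back necroptosis, which runs through the kinases RIPK1 and RIPK3 and the membrane-permeabilising protein MLKL. ZBP1 is a sensor of Z-form nucleic acids that can engage RIPK3 and is itself induced by interferon. The study's title names ZBP1 expression, and a comparison of the knockout lines asks how far cells that lack one or the other partner resemble each other. Fibroblasts are mesenchymal cells that make collagen and other extracellular matrix, and lines from different parts of the body keep different sets of homeobox and other positional transcription factors.

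Levels are CPM, the counts of a gene relative to the scaled total of its library, and each change is a log2 ratio of the Fadd/Mlkl knockout over the Casp8/Mlkl knockout from edgeR, with its standard error (SE). A gene is called when its adjusted p over all genes tested is under 0.05. Depth ranged from 33918359 to 54731635 counts in the 6 libraries. A pair of libraries stood apart. Casp8/Mlkl replicate 1 correlated with its own replicates (r = 0.966 and 0.954 across genes, log2 CPM) about as with Fadd/Mlkl replicates 2 and 3 (0.963 and 0.964), where Casp8/Mlkl replicates 2 and 3 correlated at 0.991. Its 4 Y-linked genes Ddx3y, Eif2s3y, Kdm5d and Uty summed to 52.7 CPM, against 241 and 251 in replicates 2 and 3 and at most 0.0364 in the Fadd/Mlkl libraries. Fadd/Mlkl replicate 1 had the highest interferon levels and the lowest protein-coding share of counts (81.4%, against 85.0 to 88.8% in the other 5). Whether Casp8/Mlkl replicate 1 holds the same cells as its replicates was not tested, and the Casp8/Mlkl means and the n of 3 include it. The main results that move with these libraries are given with and without them.

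Fadd and Casp8 were each lower in the line labelled as lacking them. Fadd (chromosome 7, 144577318 to 144582463 on mm10) stood at 0.176, 0.0364 and 0.0876 CPM in the Fadd/Mlkl libraries and at 8.62, 11.3 and 11.2 CPM in the Casp8/Mlkl libraries. Casp8 (chromosome 1, 58795374 to 58847503) stood at 43.7, 46.2 and 39.3 CPM in the Fadd/Mlkl libraries and at 12.4, 11.3 and 10.4 CPM in the Casp8/Mlkl libraries. Fadd reads were close to absent from its knockout, while Casp8 reads remained in the Casp8/Mlkl knockout at a lower level. The log2 difference was -6.65 for Fadd (SE 0.422, adjusted p = 1.46e-05) and 1.92 for Casp8 (SE 0.304, adjusted p = 0.00273). Mlkl transcripts were read in both groups, at 11.8, 6.63 and 7.14 CPM and at 3.69, 9.31 and 9.46 CPM. The groups overlapped for Mlkl (log2 0.18, adjusted p = 0.839). No group with intact Mlkl is there to set it against, and reads of a transcript say nothing about the protein.

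The lines differed at 1633 autosomal genes, 10.3% of those tested, of which 559 were higher in the Fadd/Mlkl knockout (3.53%) and 1074 lower (6.78%). Of the genes called higher, 447 differed by a log2 of at least 1 and 45 by at least 6. Among those called lower the same counts were 903 and 263. The median log2 difference was 2.19 for the genes called higher and -3.12 for those called lower. Most genes called are protein coding (1477), and 83 are long noncoding RNAs. An unadjusted p under 0.05 was reached by 3835 genes. The count called was 2434 without Casp8/Mlkl replicate 1, 1002 without Fadd/Mlkl replicate 1, and 776 and 805 without Casp8/Mlkl replicate 2 or 3. With the 6 knockout libraries fitted alone it was 992.

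Interferon-induced genes were higher throughout the Fadd/Mlkl knockout. These genes are switched on by STAT and IRF transcription factors after a cell senses foreign nucleic acid or interferon. Their promoters often carry the interferon-stimulated element, searched for here as GAAA, any 2 bases and GAAA again on either strand. RefSeq promoters on GRCm38.p6 are shown for 4 genes called higher, as the 120 bases before the transcription start, with the matches in capitals. They belong to Oas3 (chr5:120777660-120777779, minus strand), Mndal (chr1:173880188-173880307, minus strand), Isg15 (chr4:156200819-156200938, minus strand) and Ifit1 (chr19:34640769-34640888, plus strand).
Oas3: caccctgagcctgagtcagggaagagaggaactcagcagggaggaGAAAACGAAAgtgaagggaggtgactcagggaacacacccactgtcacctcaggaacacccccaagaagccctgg
Mndal: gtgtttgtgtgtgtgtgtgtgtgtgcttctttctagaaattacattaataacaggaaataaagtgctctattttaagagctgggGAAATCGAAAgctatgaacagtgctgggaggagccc
Isg15: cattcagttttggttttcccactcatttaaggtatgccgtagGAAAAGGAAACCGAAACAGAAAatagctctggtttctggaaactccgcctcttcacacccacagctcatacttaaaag
Ifit1: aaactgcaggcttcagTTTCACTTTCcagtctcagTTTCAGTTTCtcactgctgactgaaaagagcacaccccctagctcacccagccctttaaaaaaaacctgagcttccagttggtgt
Isg15 holds 3 overlapping matches and Ifit1 holds 2 on the other strand. The table holds a promoter for 24 of the 29 type I interferon genes called higher, and 10 of them have a match within 250 bases before the start (41.7%), against 267 of the 10186 tested genes with a promoter (2.62%). The share was 9.76% of all genes called higher (37 of 379), 2.48% of those called lower (18 of 726) and 16.7% of the called matrix glycoprotein genes (3 of 18). The table has no promoter for the rest of the 15828 gene symbols tested, so these shares describe the matched genes alone, and a match is a run of letters, not a site shown to be bound.

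The synthases that make the second messenger 2-5A on double-stranded RNA stood out by size. Oas3 (chromosome 5, 120753098 to 120777661) was at 163, 20.9 and 30.4 CPM in the Fadd/Mlkl libraries and at 0.231, 0.138 and 0.0878 CPM in the Casp8/Mlkl libraries. Oas2 was at 179, 22.5 and 35.1 against 0.0461, 0.299 and 0.264 CPM. Replicate 1 was the highest Fadd/Mlkl library for both. The log2 difference was 8.82 for Oas3 (SE 1.291, adjusted p = 0.00334) and 8.60 for Oas2 (SE 1.327, adjusted p = 0.00236), and 7.77 and 6.66 without both replicate 1 libraries (adjusted p = 0.00727 and 0.00865). Mndal, of the interferon-induced IFI200 family on chromosome 1, was at 89.3, 23.6 and 44.4 against 0.161, 0.299 and 0.527 CPM, 7.33 higher (SE 0.745, adjusted p = 0.000211).

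Of 53 type I interferon genes tested, 29 were called higher and 0 lower, a share of 54.7%, and the list's median log2 difference was 2.90, against -0.0041 over all autosomal genes tested. All 53 had a positive difference, and 51 reached an unadjusted p under 0.05. The groups did not overlap for 49 of them, where 13.0% of all genes tested were higher without overlap. Isg15, a ubiquitin-like modifier, was at 264, 68.5 and 67.7 against 3.57, 27.2 and 14.99 CPM (log2 3.13, adjusted p = 0.0293, and 0.0763 without both replicate 1 libraries). Irf7, the transcription factor that amplifies interferon production, was at 450, 44.3 and 70.7 against 1.73, 13.0 and 9.22 CPM (log2 4.56, adjusted p = 0.0188, and 2.37 with 0.0438 without both replicate 1 libraries). In both genes replicate 1 was the highest library of the Fadd/Mlkl group and the lowest of the Casp8/Mlkl group. The number called was 7 without Fadd/Mlkl replicate 1, 21 without Casp8/Mlkl replicate 1 and 9 without both, with medians of 2.03, 2.42 and 1.55. It was 10 and 7 without Casp8/Mlkl replicate 2 or 3. With Fadd or Casp8 put back, 24 members were called higher in the Fadd line and 0 lower, at a median of 3.04. A change in the difference between the lines was called for 0 of the 53. Ifnb1, the interferon beta gene, was too low to be tested, at 0.615, 0.0364 and 0.0438 against 0, 0.023 and 0 CPM. Reads of the Oas, Ifit and H2 families may be shared between close relatives.

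Antigen presentation genes were higher in the same direction. Of 38 tested, 22 were called higher (57.9%) and 0 lower, with a median of 2.62. H2-K1, a class I heavy chain, was at 2274, 543 and 944 CPM against 89.8, 168 and 160 CPM, and H2-D1, another, at 1772, 414 and 803 against 109, 199 and 168 CPM. The Fadd/Mlkl libraries lay above the Casp8/Mlkl libraries for both, with log2 differences of 3.17 (SE 0.597, adjusted p = 0.00701) and 2.65 (SE 0.508, adjusted p = 0.00772). B2m, the light chain they share, was at 1468, 463 and 865 against 215, 362 and 320 CPM (log2 1.64, adjusted p = 0.0442, but 0.0831 to 0.153 with any 1 knockout library other than Fadd/Mlkl replicate 2 left out). H2-Q6 (log2 4.81) and Irf8, an interferon-response transcription factor (log2 6.54), were the called members with the greatest differences. Without both replicate 1 libraries 14 members were called and the median was 1.41, and without Casp8/Mlkl replicate 2 or 3 the number called was 9. With Fadd or Casp8 put back, 19 members were called higher in the Fadd line and 0 lower, at a median of 2.77. A change in the difference between the lines was called for 0 of the 38.

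Among 26 genes of nucleic acid sensing, 9 were called higher and 2 lower (42.3%, against 10.3% of all genes). The 9 became 2 without Fadd/Mlkl replicate 1, 4 without both replicate 1 libraries, and 1 and 2 without Casp8/Mlkl replicate 2 or 3. Ifi203, a relative of Mndal, was at 96.2, 19.4 and 20.9 against 0.161, 2.16 and 2.31 CPM (log2 4.88, adjusted p = 0.0206, and 3.17 with 0.0536 without both replicate 1 libraries). Zbp1 (chromosome 2, 173206612 to 173218923) was at 66.1, 7.28 and 13.0 CPM in the Fadd/Mlkl libraries and at 0.2996, 0.874 and 1.20 CPM in the Casp8/Mlkl libraries. Replicate 1 was the highest library of one group and the lowest of the other, and the groups did not overlap. The log2 difference of 5.19 was called (SE 1.194, adjusted p = 0.0188). It was 3.69 without Fadd/Mlkl replicate 1 (adjusted p = 0.067) and 3.29 without both replicate 1 libraries (0.0804). The Zbp1 call was also lost without Casp8/Mlkl replicate 2 or 3 (5.27 and 5.60, adjusted p = 0.0796 and 0.0634). The members called lower were Zcchc3, a cofactor of the DNA sensor cGAS (1 count over the Fadd/Mlkl libraries against a mean of 4.87 CPM), and Unc93b1, which carries Toll-like receptors to endosomes (log2 -3.44). Both were named after their values were seen.

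**Figure D1:**
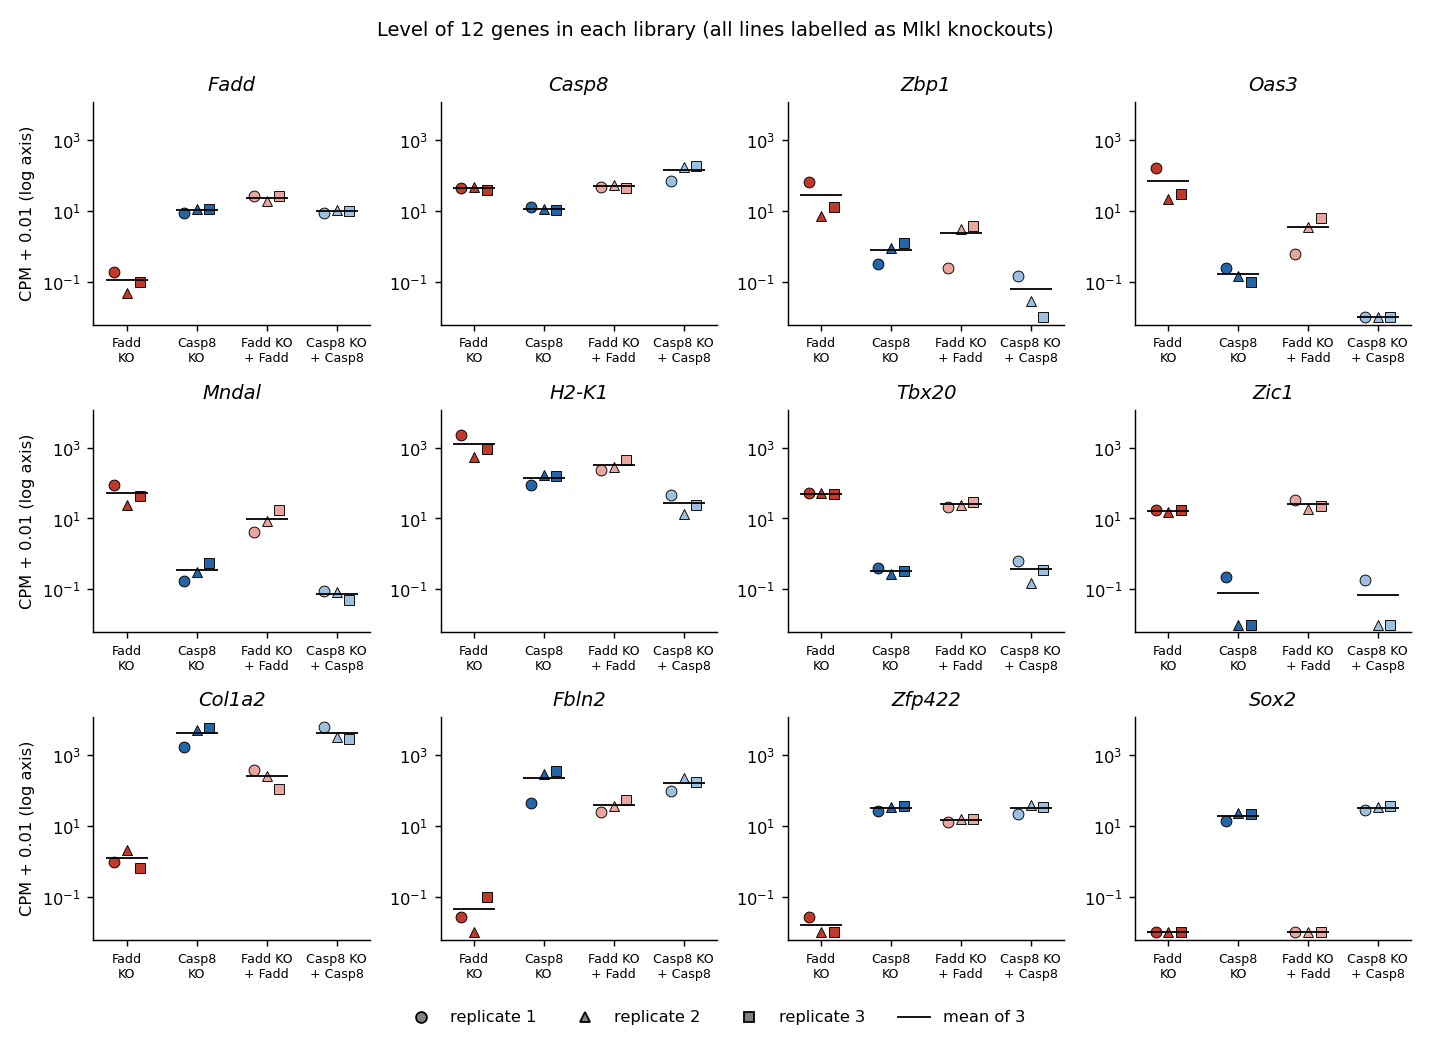
Levels of 12 genes in the 12 libraries, as CPM plus 0.01 on a log axis, with 1 symbol per replicate and a line at the mean of 3. The 3 Fadd/Mlkl knockout libraries hold 50.7 ± 2.62 CPM of Tbx20 and no count of Sox2, and the 3 Casp8/Mlkl knockout libraries hold 0.322 ± 0.0694 and 19.8 ± 4.98 CPM (SD, n = 3).

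Genes of the extracellular matrix were lower in the Fadd/Mlkl knockout. Of 62 matrix glycoprotein, proteoglycan and elastic fibre genes tested, 26 were called lower and 2 higher (45.2% called), with a median log2 difference of -1.75. Fbln2 (chromosome 6, 91212455 to 91272540), which codes for the elastic fibre protein fibulin 2, was at 0.0176, 0 and 0.0876 CPM in the Fadd/Mlkl libraries and at 46.4, 288 and 353 CPM in the Casp8/Mlkl libraries. Nid1, which codes for the basement membrane linker nidogen 1, was at 0, 0.182 and 0.0438 against 95.5, 223 and 271 CPM. Both were close to unread in every Fadd/Mlkl library, with log2 differences of -12.69 (SE 1.108, adjusted p = 0.000103) and -11.29 (SE 1.093, adjusted p = 0.000166). Fn1, which codes for fibronectin, was at 276, 223 and 162 against 573, 2339 and 3411 CPM (log2 -3.26, SE 0.529, adjusted p = 0.00321). Lama5, a laminin chain gene, was called higher (277, 130 and 117 against 20.3, 43.1 and 69.5 CPM, log2 1.98, adjusted p = 0.0333), and its adjusted p was 0.0596 to 0.117 without Fadd/Mlkl replicate 1 or Casp8/Mlkl replicate 1 or 2. Casp8/Mlkl replicate 1 held less of most of these genes than its replicates. Without it 35 members were called lower and 1 higher, and with any other knockout library left out 19 to 22 were lower. With Fadd or Casp8 put back, 10 members were called lower in the Fadd line and 3 higher, at a median of -0.72.

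Collagens behaved unevenly. Col1a2 (chromosome 6, 4504814 to 4541544), a chain of type I collagen, was at 0.966, 2.06 and 0.635 CPM in the Fadd/Mlkl libraries and at 1688, 5367 and 5909 CPM in the Casp8/Mlkl libraries. Col1a1, the other chain of the same trimer, was at 649, 662 and 222 against 921, 4190 and 5130 CPM. Col1a2 was thus nearly unread in the Fadd/Mlkl libraries (log2 -11.78, SE 0.907, adjusted p = 4.57e-05), while Col1a1 was lower but still read there (log2 -2.74, SE 0.673, adjusted p = 0.0249, but 0.062 to 0.0907 with any 1 knockout library other than Casp8/Mlkl replicate 1 left out). Col6a3, of the beaded filament collagen VI, was at 1.23, 0.4 and 0.897 against 1.498, 142 and 262 CPM (log2 -7.32, adjusted p = 0.0075, and -7.90 with 3.69e-05 without Casp8/Mlkl replicate 1). For Col6a3 the low Casp8/Mlkl library was replicate 1, close to the Fadd/Mlkl libraries. Of 25 collagens tested, 8 were called lower and 1 higher (36.0%), with a median of -1.27.

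Called genes of matrix turnover and cell adhesion were nearly all lower. Of 30 matrix proteases and inhibitors 6 were called lower and 0 higher (20%), among them Adamts5, an aggrecan-cleaving protease (8.63 ± 4.86 against 70.6 ± 6.08 CPM), and Mmp16, a membrane metalloproteinase (6.19 ± 3.76 against 27.8 ± 4.65 CPM). Of 19 integrins 8 were called lower and 0 higher (42.1%). Itga11, a collagen receptor chain, was at 0.228, 0.0546 and 0.0657 against 2.05, 16.1 and 26.6 CPM (log2 -6.95, adjusted p = 0.00308). Itgb8, a chain of the receptor that activates latent TGF-beta, was 2.93 lower on the log2 scale (adjusted p = 0.022). Among 26 cadherins and immunoglobulin adhesion genes 8 were called lower and 1 higher (34.6%). For both lists the number lower was 5 without Casp8/Mlkl replicate 2 or 3. Pcdh7, a protocadherin, was at 0.246, 0.837 and 0.547 against 10.5, 62.2 and 79.6 CPM (log2 -6.54, adjusted p = 0.0105). Negr1, a neuronal growth regulator, was the member called higher (8.41, 6.74 and 3.48 against 1.18, 0.713 and 0.586 CPM, log2 2.91, adjusted p = 0.0439, but 0.0571 to 0.162 with any 1 knockout library other than Casp8/Mlkl replicate 1 left out).

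Called genes of 3 signalling lists were nearly all lower. Of 42 genes of the BMP and TGF-beta pathway 15 were called lower and 0 higher (35.7%), and 9 to 17 were lower with 1 knockout library left out. Bmp6, a bone morphogenetic protein, was at 0.0176, 0.0546 and 0 against 1.01, 17.0 and 15.2 CPM (log2 -8.64, SE 1.516, adjusted p = 0.00494). Tgfb3, a TGF-beta ligand, was at 24.4, 24.1 and 15.9 against 54.0, 486 and 475 CPM (log2 -3.98, SE 0.676, adjusted p = 0.00412). In both the lowest Casp8/Mlkl library was replicate 1, and it still lay above every Fadd/Mlkl library. Of 39 Wnt pathway genes 13 were called lower and 1 higher (35.9%). With 1 knockout library left out the number lower was 4 to 6, or 18 without Casp8/Mlkl replicate 1. Wnt5a, a ligand of the noncanonical branch, had 2 counts over the Fadd/Mlkl libraries and stood at 4.79, 32.5 and 32.0 CPM in the Casp8/Mlkl libraries. The ratio of Casp8/Mlkl over Fadd/Mlkl was 1770, with a 95% counting interval of 488 to 14600. Wnt6 was the member called higher (log2 2.96, adjusted p = 0.0341, and 0.0723 to 0.139 without Fadd/Mlkl replicate 1 or any 1 Casp8/Mlkl library). Of 47 genes of the FGF, hedgehog, PDGF and IGF pathways, 7 were called lower and 0 higher (14.9%, near the 10.3% of all genes). Without Casp8/Mlkl replicate 1 the number lower was 12. Pdgfd, a ligand of PDGF receptor beta, was at 0.0351, 0.091 and 0.0438 against 14.5, 45.4 and 45 CPM (log2 -9.19, SE 0.598, adjusted p = 1.48e-05).

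Contractile genes that mark myofibroblasts and smooth muscle were lower. Of 16 tested, 6 were called lower and 0 higher (37.5%, against 10.3% of all genes), with a median of -0.97. Acta2, smooth muscle alpha actin, was at 0.492, 13.9 and 5.89 CPM against 407, 1400 and 1321 CPM, and Tagln, the actin-binding protein transgelin, at 0.334, 4.11 and 1.69 against 201, 540 and 461 CPM. Fadd/Mlkl replicate 1 was the lowest library for both. The log2 differences were -7.27 (SE 1.443, adjusted p = 0.00949) and -7.61 (SE 1.167, adjusted p = 0.00228).

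The cells' labelled type was checked against fibroblast markers. Of 20 markers, 17 were tested, and 8 were called lower (5 to 12 with 1 knockout library left out) and 1 higher in the Fadd/Mlkl knockout. The share called was 52.9%, against 10.3% of all genes. The list summed to 4026 to 6464 CPM in the Fadd/Mlkl libraries and to 10150 to 25330 CPM in the Casp8/Mlkl libraries. Thy1 and Lum were all but unread in both groups, with no count in the Fadd/Mlkl libraries and 1 and 4 counts in the Casp8/Mlkl libraries. Prrx1, a limb and craniofacial mesenchyme factor, was at 4.13, 2.75 and 5.45 against 127, 464 and 533 CPM (log2 -6.51, adjusted p = 0.000309). Vim, the mesenchymal filament vimentin, was read in both groups (1335, 1358 and 1112 against 2911, 1930 and 1623 CPM, log2 -0.76, adjusted p = 0.047). Markers of other cell types ranged from absent to well read. The 15 leukocyte markers summed to at most 4.13 CPM and the 14 epithelial markers to at most 15.5 CPM in any of the 6 libraries. Cd3e, Cd4 and Cd8a had no count in either group. The 16 neural and glial markers summed to 180 to 254 CPM in the Fadd/Mlkl libraries and to 257 to 592 CPM in the Casp8/Mlkl libraries. Of 6 autosomal members tested, 4 were called lower and 1 higher (83.3%). Their most read members were Nes, an intermediate filament of progenitor cells (188.9 against 235.4 CPM on average), and Map2, a microtubule protein (16.6 against 189.4 CPM), while Rbfox3, Dcx, Sox10, Olig2 and Snap25 were at 0 in both. The 12 skeletal muscle markers summed to 51.4 to 64.4 against 4.26 to 32.5 CPM, mostly Pax3 (55.4 against 11.9 CPM), with Myod1, Myf5, Myf6 and Pax7 at 0 in both. The 12 endothelial markers summed to 28.5 to 41.6 against 38.4 to 45.8 CPM, mostly Flt1, and the 20 chondrocyte, osteoblast, tendon and adipocyte markers to 54.8 to 77.7 against 62.0 to 108.8 CPM. The part of other cell types in the results was not tested. In bulk RNA, fewer cells that express a gene and less of it per cell cannot be told apart.

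**Figure D2:**
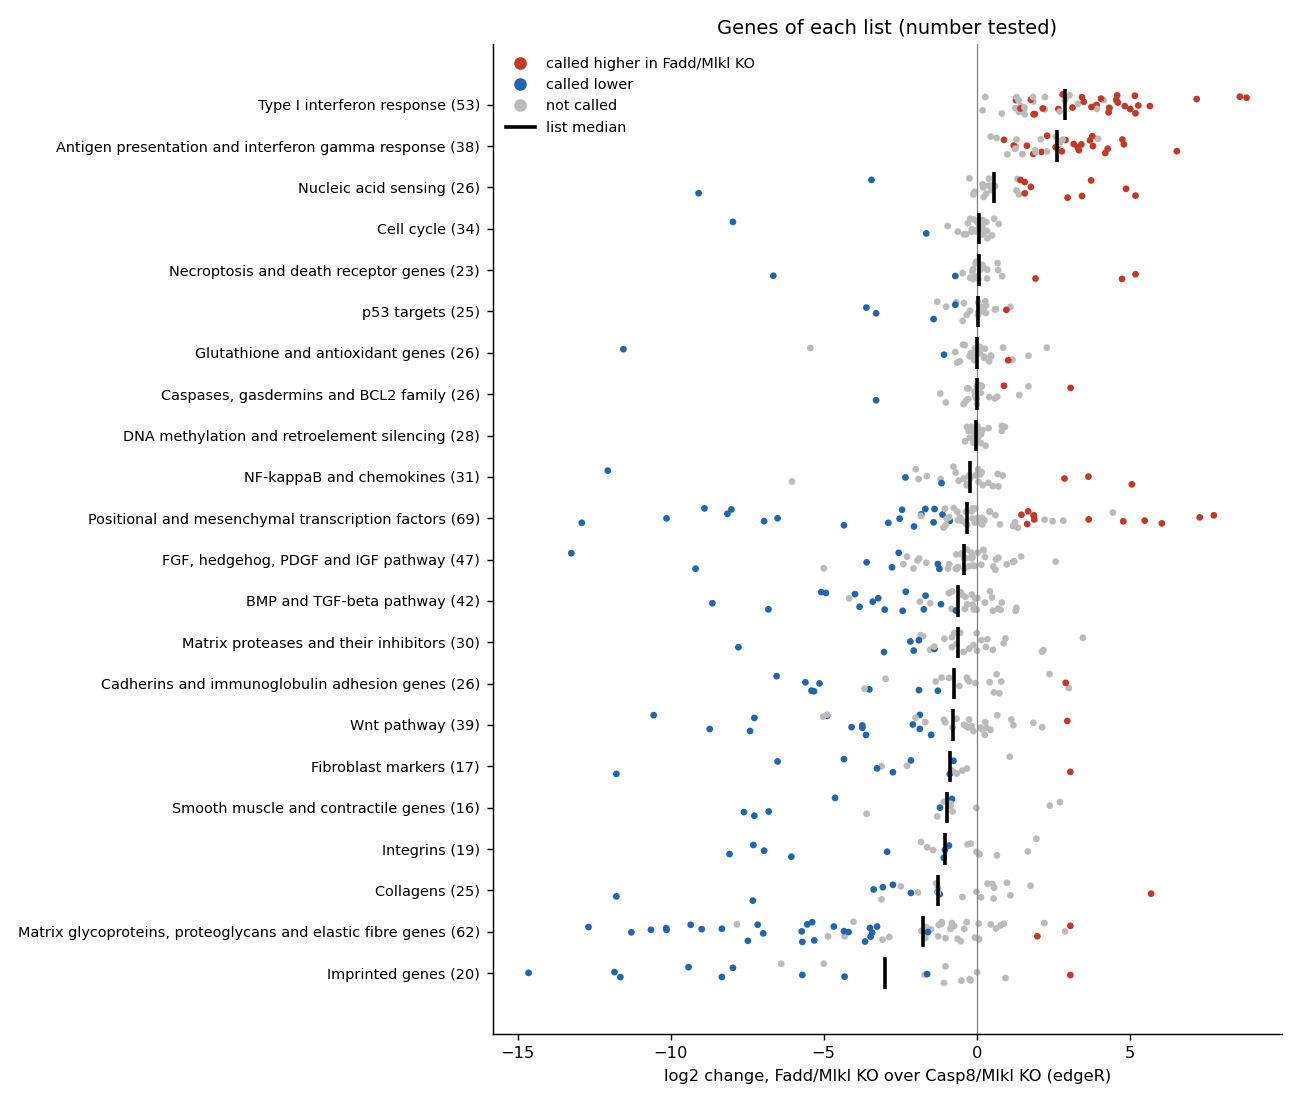
Log2 difference of each tested gene in 22 lists, 1 point per gene, with called genes in colour and a bar at the list median. Type I interferon genes lie at a median of 2.90 and imprinted genes at -3.01, while cell cycle genes lie at 0.07.

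Positional transcription factors differed in both directions. Of 69 genes tested, 12 were called higher and 18 lower (43.5%). Tbx20 (chromosome 9, 24718138 to 24774303), a T-box factor of heart and mesenchyme development, was at 52.0, 52.4 and 47.7 CPM in the Fadd/Mlkl libraries and at 0.392, 0.253 and 0.322 CPM in the Casp8/Mlkl libraries. Zic1, a zinc finger factor of neural and somite patterning, was at 17.1, 14.85 and 16.8 against 0.207, 0 and 0 CPM. The groups lay far apart for both, with log2 differences of 7.29 (SE 0.452, adjusted p = 1.35e-05) and 7.75 (SE 1.092, adjusted p = 0.00136). Without Casp8/Mlkl replicate 1, the only library of its group with a Zic1 count, the fitted value for Zic1 was 12.60 and no longer a measure of size. Foxd1, a factor of the kidney stroma and other mesenchyme, was at 35.0, 26.9 and 21.2 against 1.94, 2.51 and 2.11 CPM (log2 3.66, SE 0.297, adjusted p = 6.45e-05).

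The factors read mainly in the Casp8/Mlkl knockout were different ones. Lhx9, a LIM homeobox gene of limb and gonad, was at 0.58, 0.455 and 0.482 CPM in the Fadd/Mlkl libraries and at 63.8, 156 and 177 CPM in the Casp8/Mlkl libraries. The log2 difference was -8.02 (SE 0.426, adjusted p = 7.52e-06). Sim2, a basic helix-loop-helix factor, was at 0.105, 0.0182 and 0.0219 against 19.96, 28.6 and 27.4 CPM (log2 -8.90, adjusted p = 0.000112). Ebf1, a factor of mesenchymal and blood lineages, and Sox2, a factor of stem and neural progenitor cells, had no count in any Fadd/Mlkl library. Ebf1 stood at 13.6, 19.5 and 27.8 CPM and Sox2 at 14.2, 23.7 and 21.6 CPM in the Casp8/Mlkl libraries. Taking 3 counts in the group as the floor, they were at least 1070-fold and 1040-fold lower in the Fadd/Mlkl knockout (adjusted p = 0.000953 and 4.57e-05).

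Hox genes encode homeobox factors in 4 clusters whose expression reflects position along the body axis. Of 39 Hox genes listed, 30 were tested, and 2 were called higher and 3 lower (16.7%, against 10.3% of all genes). The HoxA genes had a median log2 difference of 0.02. The groups did not overlap for 5 of the 11 tested, against 27.6% of all genes. Of the 11, 2 were called (18.2%), both lower, among them Hoxa7 (6.34, 7.57 and 9.89 against 16.8, 16.3 and 16.4 CPM, log2 -1.06, adjusted p = 0.0108). The HoxA differences that were not called ran from -0.34 to 1.39. Of 9 HoxC genes, Hoxc6 was called higher (14.5, 7.90 and 6.74 against 2.31, 3.54 and 4.10 CPM, log2 1.55, adjusted p = 0.0149) and Hoxc10 lower (5.18, 5.61 and 4.38 against 6.15, 10.2 and 11.2 CPM, log2 -0.86, adjusted p = 0.0478). Of the HoxD genes, Hoxd8 alone was tested. It had no count in the Casp8/Mlkl libraries and 0.58, 0.419 and 0.722 CPM in the Fadd/Mlkl libraries, at least 23.1-fold higher (adjusted p = 0.00224).

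The HoxB cluster on chromosome 11 separated 1 library from the rest of its group. Hoxb9 was at 26.9, 28.2 and 26.5 CPM in the Fadd/Mlkl libraries and at 14.2, 0.115 and 0.146 CPM in the Casp8/Mlkl libraries. Hoxb6 was at 12.1, 7.81 and 9.26 against 4.10, 0.069 and 0.0586 CPM. For all 9 HoxB genes tested the Fadd/Mlkl libraries lay above the Casp8/Mlkl libraries, and on a log scale Casp8/Mlkl replicate 1 lay nearer to the Fadd/Mlkl libraries than to its own replicates. The list summed to 72.2 to 92.0 CPM in the Fadd/Mlkl libraries and to 0.556 to 36.9 CPM in the Casp8/Mlkl libraries. With all libraries 0 of the 9 were called by edgeR (6 had an unadjusted p under 0.05, DESeq2 called 2 and limma-voom 9) at a median of 2.67. Without Casp8/Mlkl replicate 1 all 9 were called higher, at a median of 7.30. The same library was not near the Fadd/Mlkl level at Zic1 (0.207 CPM) or Tbx20 (0.392 CPM).

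**Figure D3:**
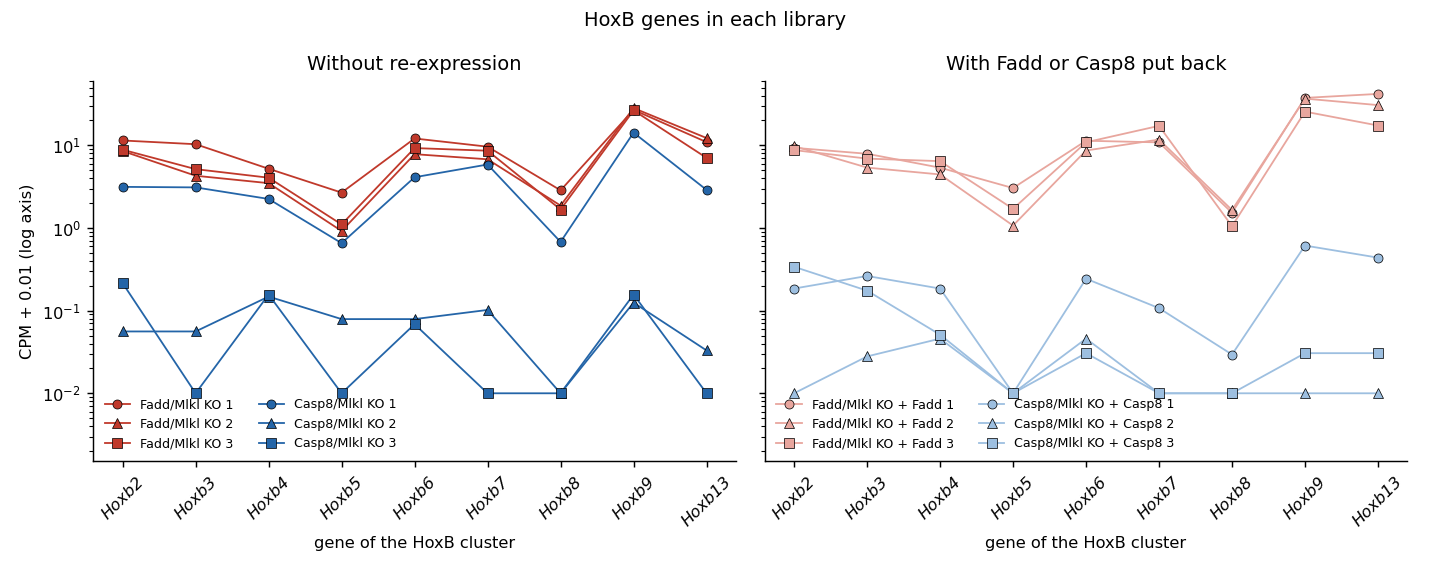
Levels of the 9 tested HoxB genes in gene order, as CPM plus 0.01 on a log axis, with 1 line per library and knockout and put-back groups in separate panels. Casp8/Mlkl knockout replicate 1 holds 14.2 CPM of Hoxb9, between 0.115 and 0.146 CPM in its replicates and 26.5 to 28.2 CPM in the Fadd/Mlkl knockout.

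Imprinted genes, which are read from 1 parental copy under the control of DNA methylation, were lower in the Fadd/Mlkl knockout. Of 20 tested, 9 were called lower and 1 higher, at a median of -3.01, where 6.78% of all genes were called lower and 3.53% higher. Grb10, an adaptor that restrains insulin and growth factor receptors, was at 0.123, 0.309 and 0.109 CPM in the Fadd/Mlkl libraries and at 148, 975 and 919 CPM in the Casp8/Mlkl libraries (log2 -11.84, SE 1.232, adjusted p = 0.000243). H19, the noncoding RNA beside Igf2, had no count in the Fadd/Mlkl libraries and stood at 0.138, 86.4 and 117 CPM in the Casp8/Mlkl libraries. It was at least 3570-fold lower (adjusted p = 0.0198, but 0.054 to 0.0579 with any 1 knockout library other than Casp8/Mlkl replicate 1 left out), and Casp8/Mlkl replicate 1 was close to the Fadd/Mlkl libraries. Cdkn1c, a cell cycle inhibitor, was at 0.0878, 0.0182 and 0 against 10.3, 9.82 and 9.96 CPM (log2 -7.97, adjusted p = 0.00146). Ndn, Snrpn and Peg3, named after their values were seen, had no count in any Fadd/Mlkl library and means of 8.475, 1.80 and 0.852 CPM in the Casp8/Mlkl knockout. The member called higher was Dcn (log2 3.06), which codes for the matrix proteoglycan decorin and was under 2 CPM in every library. Without Casp8/Mlkl replicate 1 the imprinted list had 15 members called lower and 0 higher, and with any other knockout library left out 5 to 7 lower. With Fadd or Casp8 put back, 3 imprinted members were called lower in the Fadd line and 0 higher, at a median of -0.38. A change in the difference between the lines was called for 3 of the 20. Of 28 genes of DNA methylation and retroelement silencing, 0 were called by edgeR or limma-voom and 1 by DESeq2 (3 had an unadjusted p under 0.05 in edgeR), at a median of -0.03.

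Of 23 genes of necroptosis and death receptors, 5 were called (21.7%, against 10.3% of all genes). Fadd and Casp8 define the groups, so their calls and part of that share follow from the design. Of these 3 were called higher (Zbp1, Casp8 and Tnfsf10, which codes for the death ligand TRAIL) and 2 lower (Fadd and Tnfrsf10b, the receptor for that ligand). Ripk1 was at 84.3, 72.9 and 74.0 against 76.1, 84.0 and 76.4 CPM and Ripk3 at 44.3, 62.8 and 60.9 against 65.2, 56.5 and 50.6 CPM. The groups overlapped for both kinases (log2 -0.03 and -0.04, adjusted p = 0.924 and 0.971). Tnfrsf10b was at 22.5, 21.9 and 19.7 against 40.8, 30.8 and 32.1 CPM (log2 -0.70, adjusted p = 0.0186). Of 26 caspases, gasdermins and BCL2 relatives, 2 were called higher and 1 lower (11.5%). Casp4, which senses bacterial lipopolysaccharide in the cytosol, was at 11.3, 5.90 and 8.41 against 0.738, 0.713 and 1.61 CPM (log2 3.07, adjusted p = 0.0438). Pmaip1, which codes for the BH3-only protein NOXA, was 3.29 lower (adjusted p = 0.0221).

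Inflammatory and growth control lists differed in how many members were called. Of 31 NF-kappaB and chemokine genes 3 were called higher and 3 lower (19.4%, against 10.3% of all genes). Those higher were C3, Ccl5 and Cxcl10, and those lower Cxcl14, Cxcl12 and Lif. With 1 knockout library left out, 2 or 3 members were called higher. The number lower was 6 without Casp8/Mlkl replicate 1, 1 without Fadd/Mlkl replicate 3 and 0 without any other. Ccl5, a T cell attractant, was at 81.1, 14.7 and 25.6 against 4.33, 3.15 and 2.14 CPM (log2 3.65, SE 0.623, adjusted p = 0.00416). Cxcl12, a stromal chemokine, was at 19.04, 39.99 and 102.5 against 167, 320 and 328 CPM (log2 -2.33, adjusted p = 0.048). Of 25 p53 targets 5 were called (20%), 1 higher (Rrm2b, a ribonucleotide reductase subunit, log2 0.97) and 4 lower, among them Perp, a desmosome gene (0.755, 1.15 and 0.876 against 12.9, 14.8 and 6.32 CPM, log2 -3.61, adjusted p = 0.000786). Of 34 cell cycle genes 0 were called higher and 2 lower (5.88%), the inhibitors Cdkn1c and Cdkn2b (16.2, 16.9 and 17.9 against 42.7, 59.6 and 57.4 CPM, log2 -1.65, adjusted p = 0.000309). Of 26 glutathione and antioxidant genes 3 were called (11.5%), 1 higher (Nnt, log2 1.03) and 2 lower, Cat (log2 -1.07) and Gpx7, a peroxidase of the endoplasmic reticulum. Gpx7 had no count in the Fadd/Mlkl libraries and 6.66, 7.75 and 9.37 CPM in the Casp8/Mlkl libraries, at least 416-fold lower (adjusted p = 0.000585).

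A set of genes was read in 1 knockout group alone, defined as at most 3 counts over the 3 libraries of one group and at least 1 CPM in each library of the other. There were 56 such genes in the Casp8/Mlkl knockout, 50 of them protein coding, and 6 in the Fadd/Mlkl knockout. With up to 10 counts allowed in the silent group they were 83 and 23, and with at least 5 CPM asked of the other 14 and 0. A few counts in 1 library can take a gene out, as for Zic1, read in Casp8/Mlkl replicate 1 alone of its group. Cthrc1, which codes for a secreted collagen triple helix protein, had no count in the Fadd/Mlkl libraries and stood at 5.51, 135 and 132 CPM in the Casp8/Mlkl libraries, at least 4770-fold lower (adjusted p = 0.00125). Gas6, the ligand of TAM receptor kinases, was unread against 12.2, 34.04 and 30.6 CPM (at least 1350-fold, adjusted p = 0.000103). Vldlr, a lipoprotein receptor, was unread against 1.11, 53.7 and 58.4 CPM (at least 1980-fold), Zfp503, a zinc finger gene, against 10.6, 27.5 and 29.7 CPM (at least 1190-fold), and Erfe, the hormone erythroferrone, against 18.4, 16.5 and 18.2 CPM (at least 929-fold). Zfp422, another zinc finger gene, had 1 count in the Fadd/Mlkl knockout against 26.0, 34.9 and 36.2 CPM, and carried the smallest adjusted p among the genes called lower (1.86e-06). Its ratio was 5050, with a counting interval of 906 to 200000. The 6 genes of the other direction were Klhl38, Foxa1, Ptges, Zic2 and 2 noncoding RNAs. Klhl38, a muscle adaptor of ubiquitin ligases, was at 16.1, 2.64 and 1.49 CPM in the Fadd/Mlkl libraries against 1 count in the Casp8/Mlkl libraries. These bounds and intervals cover counting error alone.

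Other genes were named by the size of their p-value, log2 change or difference in CPM. BC024063 was at 16.6, 12.3 and 10.75 against 0.2996, 0.460 and 0.527 CPM (log2 4.94, SE 0.307, adjusted p = 1.35e-05). Ang, which codes for the ribonuclease angiogenin, was at 1.39, 0.947 and 1.01 against 30.3, 20.1 and 20.9 CPM (log2 -4.41, SE 0.256, adjusted p = 1.31e-05). Xkr6, of a family of membrane scramblase relatives, had 1 count against 5.83, 6.49 and 8.34 CPM. Mapt, which codes for the microtubule protein tau, was at 40.2, 22.4 and 9.15 against 0, 0.023 and 0.0878 CPM (log2 9.36, SE 1.335, adjusted p = 0.00145). Fstl1, a secreted BMP antagonist, was at 464, 580 and 366 against 649, 2011 and 2018 CPM (log2 -1.73, adjusted p = 0.0163). A lack of overlap between the groups was required for naming these genes and is no separate result.

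The same lines with Fadd or Casp8 put back showed how much of the difference was also present there. Between them 1007 autosomal genes were called (6.35%), 473 higher (2.98%) and 534 lower (3.37%) in the Fadd line. Of the 1633 genes called between the knockouts, 1480 (90.6%) had the same sign after put back, against 70.1% of the genes not called. In both comparisons and the same direction 615 genes were called, 37.7% of the calls between the knockouts and 61.1% of those after put back. The comparisons set separate libraries against each other but come from 1 fit, which shares each gene's spread, so the calls are not independent. Tbx20 was at 21.7, 23.9 and 29.2 CPM with Fadd put back and 0.622, 0.143 and 0.329 CPM with Casp8 put back. Lhx9 was at 0.427, 0.361 and 0.456 against 108, 160 and 140 CPM, and Sox2 at 0, 0 and 0 against 28.9, 34.1 and 36.6 CPM. These genes stayed apart in the same direction when the missing gene was back. The median log2 difference of the genes called higher between the knockouts was 1.59 after put back, and that of the genes called lower was -1.23.

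A test of the change in the line difference itself called 124 autosomal genes (0.783%), of which 9 had a more positive difference between the knockouts (0.0568%) and 115 a more negative one (0.726%). Zfp422 went from 1 count in the Fadd/Mlkl knockout to 13.5, 16.1 and 15.4 CPM with Fadd put back, and stood at 21.8, 39.9 and 34.8 CPM with Casp8 put back. Col1a2 was at 394, 260 and 113 CPM with Fadd put back, against 6283, 3378 and 2806 CPM with Casp8 put back (log2 -4.02, SE of the change of the difference 0.923, adjusted p of that change 0.00236). Among the genes read in the Casp8/Mlkl knockout alone, 22 of 56 had a mean of at least 1 CPM with Fadd put back. Of the 56, 10 had at most 3 counts there, and 24 had a called change of the difference. These genes were picked for at most 3 counts over the Fadd/Mlkl knockout libraries. Their level could hardly fall further, so the 22 and the 24 come partly from that choice. Opposite calls in the knockout and put-back comparisons were made for 17 genes, Fadd and Casp8 among them. Grem1, a BMP antagonist named after its values were seen, was at 0, 0.109 and 0.328 against 3.71, 5.38 and 5.15 CPM between the knockouts and at 11.2, 88.9 and 216 against 0.642, 0.61 and 0.679 CPM after put back. Esr1, the estrogen receptor gene, also turned, from a log2 of -2.21 to 2.90. Hoxa11 did not differ between the knockouts by the test (24.1, 24.03 and 26.95 against 22.6, 23.1 and 20.7 CPM, log2 0.18, adjusted p = 0.681), and was lower in the Fadd line after put back (3.50, 2.00 and 2.54 against 40.3, 29.2 and 29.2 CPM, adjusted p of the change 0.00021).

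**Figure D4:**
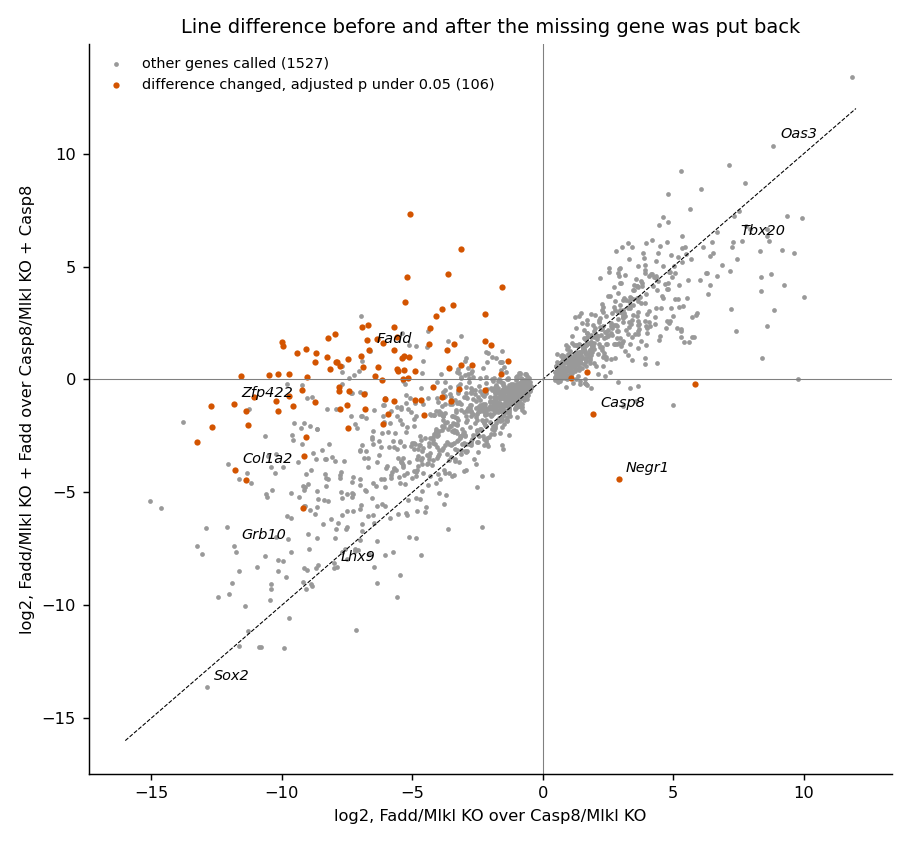
Log2 difference between the lines after put back (vertical axis) against that between the knockouts (horizontal axis) for the 1633 autosomal genes called between the knockouts, with a dashed line where both are equal. The 106 genes in orange had a called change of the difference, and 101 of them were lower in the Fadd/Mlkl knockout.

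The differences were also laid out along the chromosomes, an analysis chosen after the values were seen, over the 10345 autosomal genes with a mean of at least 5 CPM. The median log2 difference per chromosome ran from -0.30 to 0.15. Over windows of 20 neighbouring genes the median lay between -0.38 and 0.393 for the middle 95% of windows. The highest window, on chromosome 15 from Dscc1 to Mtss1 (55076099 to 59082005), had a median of 1.38 and 17 of its 20 genes called higher, where 3.05% of all such genes were called higher. The highest window on another chromosome had a median of 0.714 and the lowest window -0.723.

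Chromosome 15 was divided into 3 stretches, with edges set from these same differences, so that their medians and counts describe the choice and test nothing. The 96 genes before Eif3h had a median of 0.55, with 71 above 0. The 33 genes from Eif3h to Nsmce2 (51786558 to 59601684) had a median of 1.29, with 30 above 0 and 25 called higher, and the 306 genes after them had a median of 0.03. Against the mean of the Casp8/Mlkl libraries, the median over the 33 genes was 1.11, 1.30 and 1.20 in the Fadd/Mlkl libraries and 0.11, -0.05 and -0.05 in the Casp8/Mlkl libraries. Rad21, a cohesin subunit, was at 943, 992 and 846 against 415, 457 and 443 CPM. Atad2, a chromatin reader of the AAA ATPase family, was at 1461, 1128 and 1088 against 458, 414 and 466 CPM (log2 1.46, SE 0.197, adjusted p = 0.00108). Dscc1, a replication clamp loader subunit, was at 73.5, 62.4 and 55.8 against 19.7, 19.5 and 19.5 CPM (log2 1.71, SE 0.159, adjusted p = 0.000127), and Tatdn1, a nuclease gene, at 37.8, 41.6 and 45.2 against 17.3, 14.1 and 12.9 CPM (log2 1.49, SE 0.152). Exceptions in the stretch included Tnfrsf11b, a decoy receptor of bone remodelling, which was 8.94 lower. After put back the 33 genes had a median of 0.95, with 15 called higher and 1 lower, and Rad21 and Dscc1 were not called there (log2 0.07 and 0.32, adjusted p = 0.824 and 0.268). DNA copy number was not measured, and its part in this pattern was not tested. The genes of this region other than Dscc1, Atad2 and Tatdn1 were named after their values were seen.

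**Figure D5:**
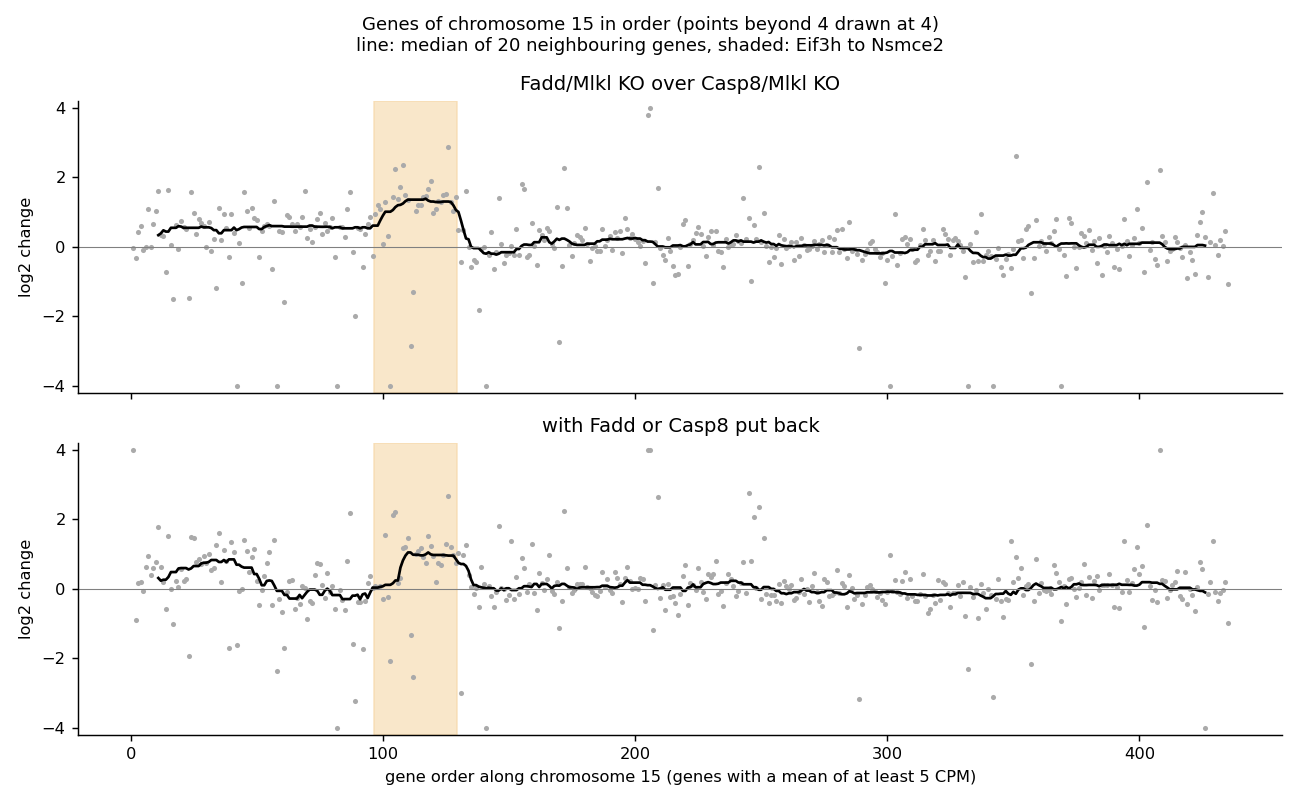
Log2 difference of the 435 chromosome 15 genes with a mean of at least 5 CPM, in gene order, between the knockouts (top) and after put back (bottom), with the running median of 20 genes as a line and Eif3h to Nsmce2 shaded. The median is 1.29 in the shaded stretch and 0.03 after it in the top panel.

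The genes beside the targeted genes were counted. Within 10 Mb of Fadd 12 of 105 genes tested were called (11.4%), and within 1 Mb 2 of 15, Mrgprf and Ano1, both lower. Within 10 Mb of Casp8 10 of 124 were called (8.06%), all lower, and within 1 Mb 0 of 27. The shares within 10 Mb lie near the 10.3% of all autosomal genes.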

How the data were processed

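Total RNA was sequenced after a stranded library preparation, per the labels. Per the labels' protocols and the submitters' processing notes, STAR 2.7.5a placed the reads on mm10 (annotation GENCODE M22) after trimming in Trim Galore 0.5.0, and RSEM gave gene totals. These deposited expected counts (96.05% of those above 0 are whole numbers) were rounded here. Positions came from GENCODE M21 on the same build and promoters from RefSeq. edgeR 4.0.16 in R 4.3.3 fitted 1 mean per group to all 12 libraries after filterByExpr (minimum count 10) and TMM scaling, with a quasi-likelihood test and Benjamini-Hochberg adjustment over 16396 genes. DESeq2 1.42.0 and limma-voom 3.58.1 were alternatives, as were other scalings, filters, left-out libraries and a replicate block. The fit was tested on simulated data. An SE is the log2 change divided by the root of F. Depth was 33918359 to 59388559 counts a library.

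The groups and 32 gene lists were chosen with earlier results of these data known. Named genes are Zbp1, Mlkl, Casp8, Fadd, Ripk3 and Ripk1; then, among called protein-coding autosomal genes of at least 5 CPM in the higher group without overlap, the 8 highest and 8 lowest log2 changes, 4 per direction by adjusted p and 4 by CPM difference; then up to 2 per direction and list. Other members were named after their values were seen. A fold against an unread group is a bound that puts 3 counts there, and ratios carry 95% exact counting intervals. Some members counted in the lists are not reported here by name.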

Additional observations from a re-analysis of the deposited data

Results flagged for a closer look

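The difference between the lines changed when Fadd or Casp8 was put back at 124 autosomal genes, by the interaction term of the edgeR fit. The values are the difference between the knockouts minus that between the put-back groups, on the log2 scale. They were -7.94 for Fadd and 3.45 for Casp8, the genes put back. Matrix and secreted proteins were Fbln2 (-10.59), Nid1 (-9.26), Col1a2 (-7.76), Gas6 (-10.49), Erfe (-11.53) and Pdgfd (-3.50). The growth control, stress and membrane genes were Cdkn1c (-9.99), Perp (-4.12), Gpx7 (-11.70) and Xkr6 (-8.41), and the zinc finger gene was Zfp422 (-10.72). The adhesion gene Negr1 (7.34) and Dscc1 on chromosome 15 (1.39) changed the other way. Gas6, Erfe and Gpx7 had no count in the Fadd/Mlkl knockout, so their fitted values depend on the small count that the fit adds and are not bounds.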

How the results depend on the processing

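All 1633 genes called between the knockouts kept their sign under every alternative in which they were tested. Their number was within 1.5 times under other scalings, other filters, limma-voom, autosomal genes alone and a replicate block over all 12 libraries (1946). It was 2612 with DESeq2, 992 with the 6 knockout libraries alone, 2546 without both replicate 1 knockout libraries (chosen after seeing the data), and 776 to 2434 when 1 library at a time was left out. The 1007 autosomal genes called between the 2 lines after Fadd or Casp8 was put back became 1990 with DESeq2, 1795 without both replicate 1 knockout libraries and 291 to 2181 with 1 library left out. The count of 124 changed differences was 376, 249 and 85 to 223 under the same settings. The 62 genes read in 1 knockout group alone were 106 with up to 10 counts allowed in the silent group and 14 with at least 5 CPM asked of the other. The causes were not tested.

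Of the 81 genes called and named by rule, 0 changed sign. Of them 14 lost their call with limma-voom, 12 without both replicate 1 libraries, 19 without Fadd/Mlkl replicate 1, and 23 and 21 without Casp8/Mlkl replicate 2 or 3. The uncalled differences of 3 genes turned sign. Mlkl was -0.44 without both replicate 1 libraries and -0.14 to 0.39 with 1 left out. Ripk1 was 0.03 by library size alone, 0.02 with a minimum count of 50 and -0.10 to 0.05 with 1 library left out. Ripk3 was 0.03 and 0.00 under those settings, 0.21 without both replicate 1 libraries and -0.12 to 0.11 with 1 left out. Same-numbered libraries of the knockout groups did not deviate together (correlations -0.301, 0.037 and -0.404), so the numbers were not taken as a pairing. A replicate block within the 6 knockout libraries left 167 genes called.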

Other observations

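Some families were counted by gene symbol after the values were seen. Of 22 gamma protocadherin genes tested, 0 were called higher and 8 lower (36.4%, against 10.3% of all genes), with a median log2 difference of -1.91. These genes share their last exons, so that reads can be split between them and the counts of single members are uncertain. Of 13 genes of the heat shock 70 family 5 were called lower and 0 higher (38.5%). Of 12 polypeptide GalNAc transferase genes, which start mucin-type sugar chains, 5 were lower and 2 higher (58.3%). Of 348 zinc finger genes named Zfp with a number, 24 were lower and 5 higher (8.33%), with a median of -0.02. Of 67 histone genes 3 were higher and 2 lower (7.46%). The zinc finger and histone shares lie under the 10.3% of all autosomal genes.

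Chromosomes 16 and 18 had the lowest medians among genes of at least 5 CPM (-0.25 and -0.30 between the knockouts, -0.14 and -0.40 after put back), with 21.5% and 21.9% of their genes above 0. Windows with a low median were found on chromosome 19 from Ccdc86 to Nmrk1 and on chromosome 16 from Arhgap31 to Nectin3 (-0.723 and -0.647).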
